A study of Mus musculus with 10 samples.

Results

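Glycolysis was described here through 10 genes, Slc2a1, Hk2, Gpi1, Pfkl, Aldoa, Gapdh, Pgk1, Eno1, Pkm and Ldha. They were chosen by name from the deposited table of gene expression, and 11 of its 54532 rows carried 1 of these names, since Aldoa had 2. The table came from spleens of 5 DUSP6 KO and 5 wild-type (WT) mice in KRN serum-induced arthritis (KSIA), with 1 RNA-seq library per mouse. All 10 mice had received 100 µL of pooled arthritogenic serum intraperitoneally on days 0 and 2, and spleens were taken on day 9, when arthritis peaks. DUSP6 KO mice carried the Dusp6tm1Jmol allele in every cell, WT mice were C57BL/6J, and both came from the Jackson Laboratories and were 8 to 12 weeks old per the methods. The genotype label reads knockdown for the DUSP6 KO samples, and no group without serum was analysed here.

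Glycolysis turns glucose into pyruvate and, through lactate dehydrogenase, into lactate, and it yields ATP without oxygen. Glucose enters through transporters such as SLC2A1, is held in the cell by hexokinase, is split by aldolase and is oxidised by GAPDH before pyruvate kinase forms pyruvate. Activated leukocytes use the pathway heavily, and mature red blood cells depend on it. GPI1, glucose-6-phosphate isomerase, converts glucose-6-phosphate to fructose-6-phosphate and is also the autoantigen that the antibodies in KRN serum bind. Gpi1 RNA in the spleen is the enzyme's transcript in the recipient, not the serum antibody or its joint target.

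Libraries held 14990474 to 19822673 reads recovered from the values. Dusp6, the deleted gene, stood between 0.308 and 0.624 FPKM (fragments scaled to exon length and library size) in the DUSP6 KO spleens and between 16.6 and 24.0 FPKM in the WT spleens, with -5.19 as its fitted log2 difference (limma adjusted p = 1.33e-07). The markers of the labelled tissue were present, with summed B cell markers of 629 to 1608 FPKM. Xist was at most 0.0206 FPKM and Ddx3y was between 14.4 and 18.6 FPKM, the pattern of male mice, in all 10 libraries. Libraries differed in other cells: WT mouse 67 carried 6163 FPKM of 5 exocrine pancreas markers against 9.52 to 92.9 in the others, and erythroid markers summed to between 17695 FPKM in DUSP6 KO mouse 21 and 91366 in DUSP6 KO mouse 73. Bulk spleen values cannot separate fewer cells of a type from less RNA per cell.

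No glycolysis gene passed the test between DUSP6 KO and WT spleens at an adjusted p of 0.05. Of the 11 rows, all passed the filter on low values, 10 had a lower and 1 a higher mean log2 level in DUSP6 KO, and 0 passed limma at an adjusted p of 0.05 or at an unadjusted p under 0.05. Over all 21296 genes tested, 51.0% had a lower mean log2 level in DUSP6 KO and 0.0704% passed the adjusted threshold. With an unadjusted p under 0.05, 3.03% were lower and 2.62% higher in DUSP6 KO. The 11 rows are not independent, since some of them varied together between spleens. The groups overlapped for every one of the 11 rows, where 0.563% of the genes tested were lower and 0.549% higher in DUSP6 KO without overlap. The median log2 fold change of the 11 rows was -0.07, against -0.0046 over all genes tested. In each library the median deviation of the rows from their group means was also taken, and its SD between libraries of a group was 0.0783. This SD is the spread of single spleens, not the error of a difference between group means. Gpi1 and Pkm lay nearest the unadjusted threshold.

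**Figure D1:**
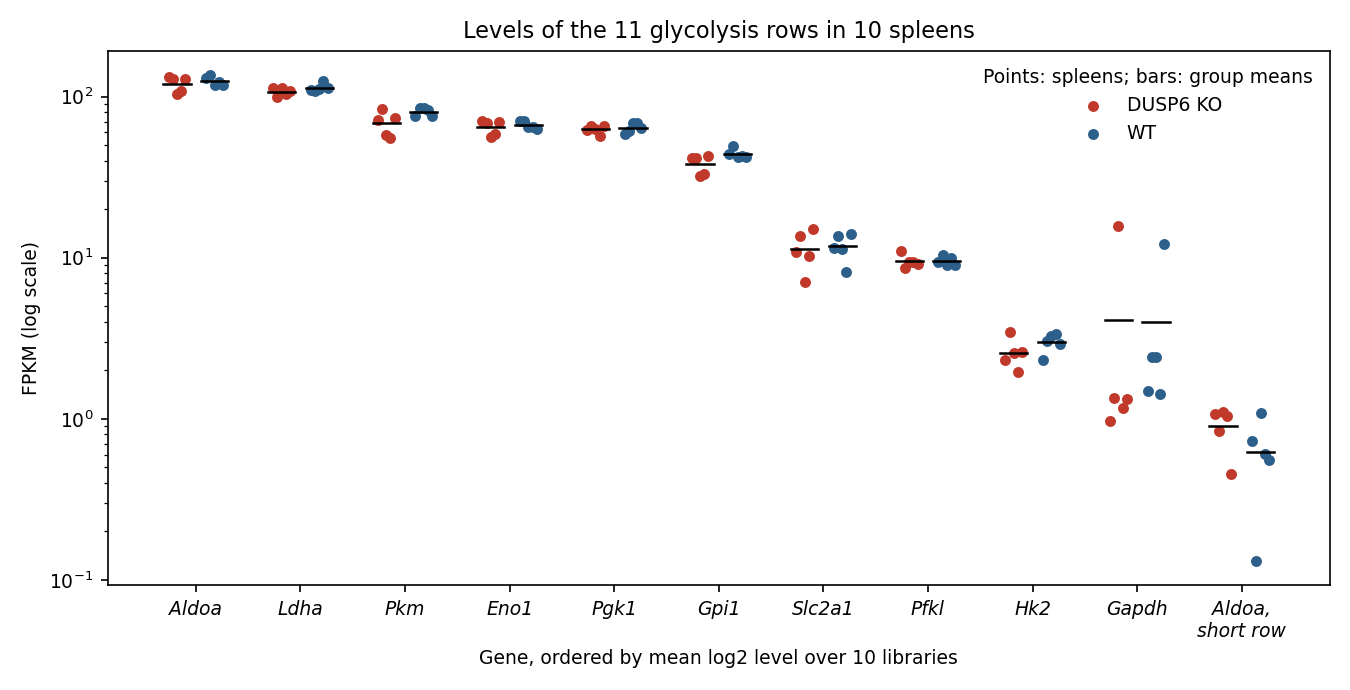
FPKM on a log axis for the 11 rows in each of 10 spleens, DUSP6 KO in red and WT in blue, with bars at the group means and genes ordered by mean log2 level. The groups overlap for every gene, and Gapdh stands near 1 to 2.42 FPKM in 8 spleens and at 15.8 and 12.1 FPKM in the other two.

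Slc2a1 (chr4:119108711-119137983, GRCm38, plus strand) encodes GLUT1, the basal glucose transporter of many cells. It measured 10.8, 13.7, 7.11, 10.2 and 15.0 FPKM in DUSP6 KO mice 26, 21, 73, 01 and 03, and 11.6, 13.7, 11.4, 8.17 and 14.1 FPKM in WT mice 65, 67, 73, 77 and 83. The groups spanned nearly the same range, and the log2 fold change was -0.07 (95% interval -0.53 to 0.39, limma adjusted p = 0.993, exact permutation p = 0.754). Slc2a3, which encodes the leukocyte transporter GLUT3, measured 8.70 ± 1.33 FPKM in the DUSP6 KO group and 9.51 ± 0.690 FPKM in WT (SD, n = 5).

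Hk2 (chr6:82725025-82774454, minus strand), an inducible hexokinase bound to mitochondria, was expressed at a low level. Its levels were 2.32, 3.45, 2.55, 1.95 and 2.60 FPKM in the DUSP6 KO group and 2.32, 3.06, 3.25, 3.35 and 2.93 FPKM in WT, in the same order of mice. DUSP6 KO held both the highest and the lowest value, and the log2 fold change of -0.22 (SE 0.16, limma adjusted p = 0.967, exact permutation p = 0.183) did not exceed the spread between spleens. The other hexokinases were higher, with Hk1 at 26.4 ± 10.3 and 24.6 ± 7.66 FPKM and Hk3, the hexokinase of myeloid cells, at 11.5 ± 2.62 and 12.03 ± 2.73 FPKM (SD, n = 5, DUSP6 KO first).

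Gpi1 (chr7:34201330-34230336, minus strand) measured 41.4, 41.6, 32.3, 33.3 and 42.7 FPKM in the DUSP6 KO group and 44.0, 49.4, 42.2, 43.0 and 42.5 FPKM in WT. By these FPKM, 4 of the 5 DUSP6 KO spleens were below all WT spleens, and DUSP6 KO mouse 03 lay above WT mice 73 and 83. Recovered reads were 0.890 times the library size that FPKM divides by in DUSP6 KO mouse 21 and 1.05 times in mouse 73. The places of close spleens for Gpi1, and the exact permutation test that follows, therefore hold for the deposited FPKM. The means were 38.3 ± 5.06 and 44.2 ± 2.98 FPKM (SD, n = 5), a fitted difference of -13.9%, with a log2 fold change of -0.22 (95% interval -0.43 to 9.0e-05). The limma p was 0.0501 and the p adjusted over all genes tested was 0.881, while the two-sided exact permutation test of the 5 against 5 log2 values, which can go no lower than 0.00794, gave p = 0.0238 without adjustment. DUSP6 KO mice 73 and 01 were the lowest, with 32.3 and 33.3 FPKM, and WT mouse 67, the spleen with pancreas markers, was the highest. The log2 fold change was -0.16 without DUSP6 KO mouse 73, -0.17 without mouse 01 and -0.18 without WT mouse 67. It stayed below 0 in all 23 alternatives tried, with an unadjusted limma p under 0.05 in 6 of them and an adjusted p of 0.678 or more. Other alternatives raised the unadjusted limma p, the highest being 0.139 with quantile normalization. With limma voom on recovered reads the log2 fold change was -0.20 and the unadjusted p was 0.0520. Markers of 3 blood cell types had lower means in DUSP6 KO throughout. These were 10 of 10 for neutrophils, 5 of 5 for platelets and 6 of 6 for B cells. Of them, 6, 2 and 0 had an unadjusted limma p under 0.05, where 3.03% of all genes tested were lower at that threshold. The adjusted threshold was passed by 0. Other cell types went the other way or split. Erythroid markers were higher in 8 of 9 and proliferation markers in 6 of 6, with 0 at an unadjusted limma p under 0.05. T cell and red pulp macrophage markers were each 3 higher and 3 lower. Of these, 1 macrophage marker was higher at that threshold, as were 2.62% of all genes tested. Neutrophil markers summed to 585 to 1989 FPKM in the DUSP6 KO group and 1144 to 5010 FPKM in WT. The highest sum of the DUSP6 KO group, 1989 FPKM, was in mouse 73, which had the lowest Gpi1, and the lowest, 585 FPKM, was in mouse 01. The part of these cells in Gpi1 or Pkm was not tested.

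Pfkl (chr10:77986947-78010083, minus strand), the liver-type subunit of phosphofructokinase that commits sugar to the pathway, was the closest to equal. It lies on the chromosome of Dusp6, 21.3 Mb away. Levels were 10.98, 8.60, 9.39, 9.39 and 9.18 FPKM in the DUSP6 KO group and 9.43, 10.5, 9.06, 9.95 and 8.99 FPKM in WT, and the log2 fold change was -0.01 (95% interval -0.20 to 0.17, limma adjusted p = 0.998, exact permutation p = 0.865). This sign turned to 0.03 with array weights and to 0.0054 with median centring.

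Aldoa, the aldolase that splits fructose-1,6-bisphosphate, had the highest level of the 11 rows. Its main row (ENSMUSG00000030695, chr7:126795234-126800751, minus strand) measured 131.7, 128.7, 103.9, 107.8 and 127.7 FPKM in the DUSP6 KO group and 129.9, 136.0, 118.1, 122.5 and 117.5 FPKM in WT. As for Gpi1, DUSP6 KO mice 73 and 01 were lowest, and the log2 fold change was -0.06 (SE 0.09, limma adjusted p = 0.993, exact permutation p = 0.476). The second row (ENSMUSG00000114515, chr7:126800790-126809108, 799 bases) rested on 2 to 18 reads per library and measured 0.903 ± 0.273 FPKM in the DUSP6 KO group and 0.622 ± 0.345 FPKM in WT (SD, n = 5). It was the only row with a higher mean log2 level in DUSP6 KO, at 0.60 (95% interval -0.32 to 1.51, limma adjusted p = 0.963, exact permutation p = 0.222).

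Gapdh (chr6:125161715-125166467, minus strand), glyceraldehyde-3-phosphate dehydrogenase and a common reference gene, stood far below the other lower-glycolysis enzymes and split the libraries. It measured 0.973, 1.34, 15.8, 1.17 and 1.33 FPKM in the DUSP6 KO group and 1.49, 2.42, 2.41, 1.43 and 12.1 FPKM in WT. DUSP6 KO mouse 73 had 954 reads and WT mouse 83 had 896, where the other 8 libraries had 75 to 191. No other gene with 100 reads or more in both libraries exceeded 2 times every other library in them. Gapdh had 78 near-identical copies in the annotation (95% identity or more over at least 200 bases), of which 75 were pseudogenes and 25 reached 99% identity, and 57.1% of the reads of gene and copies together were assigned to copies. In the libraries of DUSP6 KO mouse 73 and WT mouse 83 the copies held 293 and 410 reads, within the range of 293 to 471 over all libraries. The level of Gapdh is therefore uncertain by sequence, and its gene also overlaps Iffo1 on the opposite strand, while the strand setting of the counting is not given in the sources used here. With all libraries the log2 fold change was -0.41 (95% interval -2.17 to 1.34, limma adjusted p = 0.993, exact permutation p = 0.516). Without DUSP6 KO mouse 73 it was -1.14 and without WT mouse 83 it was 0.11, so each of the 2 libraries decided the value. Over the other 4 spleens per group Gapdh measured 1.204 ± 0.173 FPKM in the DUSP6 KO group and 1.94 ± 0.555 FPKM in WT (SD, n = 4), given with no test since these spleens were kept for their Gapdh.

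Pgk1 (chrX:106187100-106203699, plus strand), phosphoglycerate kinase and the first ATP-forming step, varied least between spleens by the ratio of its highest to its lowest value. It measured 62.3, 65.9, 62.7, 56.8 and 65.6 FPKM in the DUSP6 KO group and 58.3, 60.7, 68.6, 68.2 and 63.5 FPKM in WT. That ratio was 1.21, and the log2 fold change was -0.03 (95% interval -0.19 to 0.13, limma adjusted p = 0.993, exact permutation p = 0.643).

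Eno1 (chr4:150236721-150248879, plus strand), the alpha-enolase of most tissues, measured 70.5, 69.0, 56.0, 58.4 and 69.6 FPKM in the DUSP6 KO group and 70.9, 70.6, 64.6, 64.3 and 63.2 FPKM in WT. The same 2 DUSP6 KO spleens were lowest, and the other 3 lay within the WT range. The log2 fold change was -0.05 (SE 0.09, limma adjusted p = 0.993, exact permutation p = 0.484).

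Pkm (chr9:59656368-59679375, plus strand) encodes the pyruvate kinases M1 and M2, which the gene-level values cannot tell apart. It measured 71.6, 83.6, 58.0, 55.0 and 73.6 FPKM in the DUSP6 KO group and 75.3, 85.5, 85.5, 82.1 and 75.5 FPKM in WT. All WT spleens were above 4 of the 5 DUSP6 KO spleens, and DUSP6 KO mouse 21 lay among the WT. The means were 68.4 ± 11.8 and 80.8 ± 5.11 FPKM (SD, n = 5), a log2 fold change of -0.26 (95% interval -0.51 to 0.00098). The limma p was 0.0507 and the adjusted p was 0.884, and the two-sided exact permutation test gave p = 0.0476 without adjustment. Leaving out DUSP6 KO mouse 21 gave -0.33 with a limma p of 0.00994 unadjusted, and leaving out mouse 01 gave -0.18. Over the 23 alternatives the unadjusted limma p of Pkm was under 0.05 in 4, and its adjusted p was 0.504 or more. Other alternatives raised the unadjusted limma p, to 0.102 with quantile normalization and to 0.123 at most. The gene overlaps AC160637.1 on the same strand, which held 1397 reads over the 10 libraries. It also has 1 near-identical pseudogene (98.4% identity), which held 0.856% of their joint reads. What the overlap does to the level of Pkm was not tested.

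Ldha (chr7:46841475-46855627, plus strand), the lactate dehydrogenase subunit that favours lactate, measured 113.5, 98.8, 112.4, 103.0 and 108.9 FPKM in the DUSP6 KO group and 110.6, 108.9, 111.0, 124.5 and 112.7 FPKM in WT. DUSP6 KO mouse 73, among the lowest for Gpi1, Aldoa, Eno1 and Pkm, was not low for Ldha. The log2 fold change was -0.08 (95% interval -0.24 to 0.07, limma adjusted p = 0.978, exact permutation p = 0.190).

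**Figure D2:**
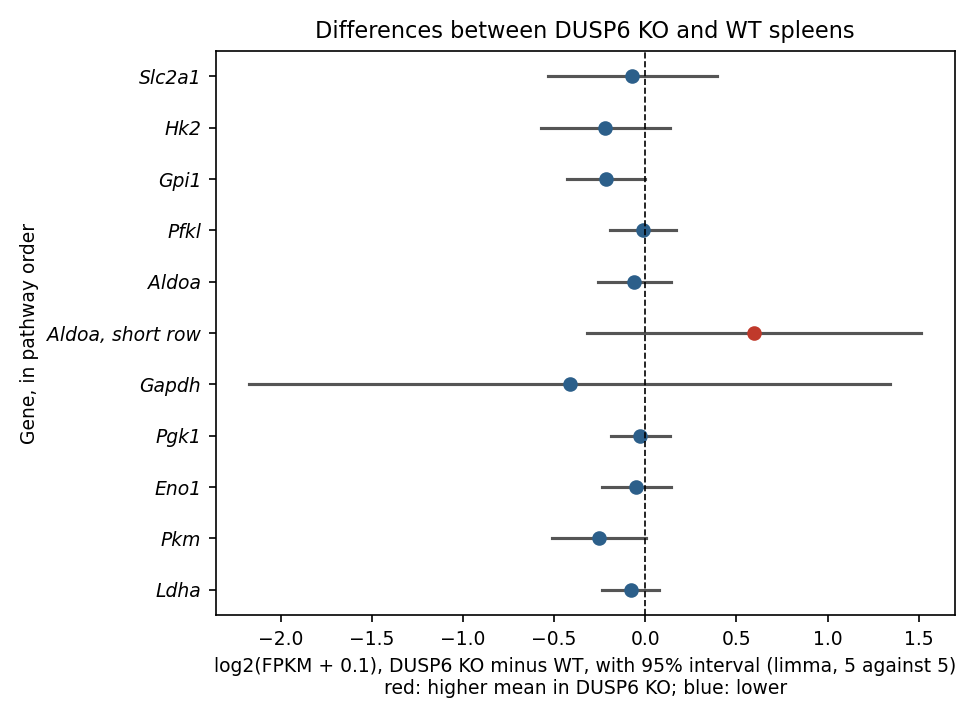
Differences of log2(FPKM + 0.1) between DUSP6 KO and WT with 95% intervals from limma for the 11 rows, in pathway order, red where the mean was higher in DUSP6 KO and blue where it was lower. All intervals include 0, those of Gpi1 and Pkm by the smallest margin, and those of Gapdh and the second Aldoa row (short row) are the widest.

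The order of the levels was Aldoa, Ldha, Pkm, Eno1, Pgk1, Gpi1, Slc2a1, Pfkl, Hk2, Gapdh and the second Aldoa row, by mean log2 FPKM over the 10 spleens. Aldoa exceeded Ldha by 1.11 times, with overlapping ranges, in 8 of 10 spleens (exact sign-flip permutation test, adjusted p = 0.0307 over 10 neighbouring pairs). Ldha exceeded Pkm by 1.49 times and Pgk1 exceeded Gpi1 by 1.54 times, both in 10 of 10 spleens and both with an adjusted exact permutation p of 0.00488. On this scale Eno1 and Pgk1 did not differ beyond their spread (1.04 times, higher in 6 of 10, adjusted exact permutation p = 0.302), nor did Slc2a1 and Pfkl (1.18 times, adjusted exact permutation p = 0.103). Hk2 and Gapdh did not either (1.15 times, adjusted exact permutation p = 0.648). Hk2 was higher in 8 of 10, all but DUSP6 KO mouse 73 and WT mouse 83, the spleens of highest Gapdh. FPKM divided here by the summed length of all annotated exons, 6452 bases for Gpi1 against 2884 for its principal transcript and 4133 against 1420 for Gapdh. Per kilobase of the principal transcript, Gpi1 moved from place 6 to place 5, above Pgk1 at mean levels of 92.2 against 77.8, and 3 of the 11 rows kept their rank. By that length Eno1 stood at 174.4, above Pkm at 153.3, and its range of 148.6 to 188.2 no longer overlapped the 69.8 to 84.3 of Pgk1. Pfkl then stood above Slc2a1, at 17.1 against 12.4. The order of neighbours thus depends on the length used, also for pairs that passed the sign-flip permutation test on FPKM. These were Pgk1 over Gpi1, and Pkm over Eno1 (1.13 times, higher in 9 of 10, adjusted exact permutation p = 0.0228). That test measures the spread between spleens, not the choice of length. Pgk1 and Eno1 each have 3 near-identical copies in the annotation, 2 of them at 99% identity or more. These copies held 0.612% and 2.86% of the joint reads, and the 78 copies of Gapdh held 57.1%. How many reads that match gene and copy alike were left out of the counts is not known, so the places of Pgk1, Eno1 and Gapdh carry that limit too.

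Of the 6 isoenzyme families tested, enolase was the only 1 whose share passed an adjusted exact permutation p of 0.05. It did not pass in every alternative. How often shares outside these 6 families separate without overlap was not tested. Eno1 held 84.7, 84.7, 79.9, 85.0 and 82.0% of the summed FPKM of Eno1, Eno2 and Eno3 in DUSP6 KO and 85.5, 86.5, 86.7, 90.2 and 85.7% in WT. Each DUSP6 KO spleen was below each WT spleen, with means of 83.2 ± 2.25% and 86.9 ± 1.89% (SD, n = 5), a difference of -3.67 percentage points. The two-sided exact permutation test gave p = 0.00794, the lowest that 5 against 5 spleens allow, and an adjusted p of 0.0476 over the 6 families tested. By reads rather than FPKM the difference was -1.40 percentage points with the same exact p, and leaving out 1 spleen gave -4.11 to -2.83 percentage points. The adjusted exact permutation p was above 0.05 without DUSP6 KO mouse 73, WT mouse 67 or WT mouse 73 (0.0952 each) and without WT mouse 77 (0.190). Eno3, the beta-enolase of muscle, measured 12.5, 11.9, 13.6, 9.93 and 14.9 FPKM in the DUSP6 KO group and 11.6, 10.4, 9.30, 6.40 and 10.04 FPKM in WT. Eno3 had a log2 fold change of 0.40 (SE 0.16, limma p = 0.0303, exact permutation p = 0.0397), the groups overlapped, and the limma p adjusted over all genes tested was 0.801. Summed muscle markers were 0.696 to 1.90 FPKM in the DUSP6 KO group and 0.430 to 1.18 FPKM in WT, with 2 of 5, Ckm and Myh4, at 0 in every library. Most of the sum was Tnnt3, at 1.09 ± 0.481 FPKM in the DUSP6 KO group and 0.622 ± 0.295 FPKM in WT (SD, n = 5). Acta1 measured 0.144 ± 0.102 and 0.130 ± 0.0939 FPKM. The part of muscle in Eno3 was not tested. Eno1 also shares near-identical sequence with 3 annotated genes, which held 2.86% of their joint reads.

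**Figure D3:**
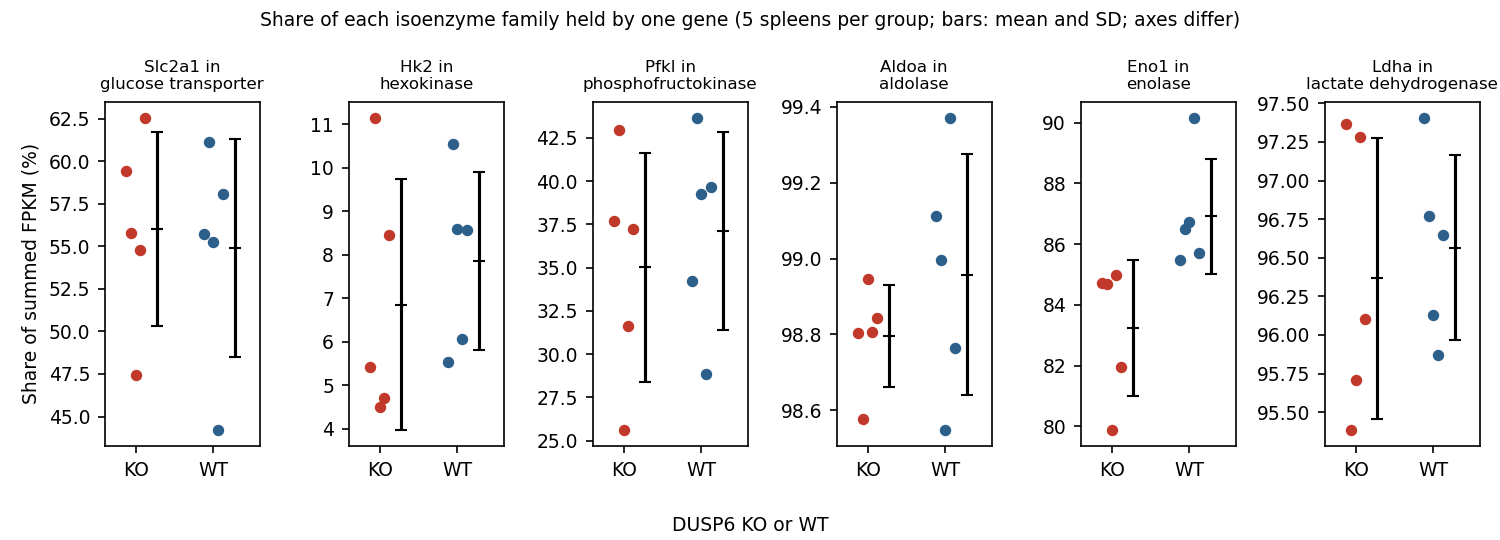
Share of the summed FPKM of an isoenzyme family held by Slc2a1, Hk2, Pfkl, Aldoa, Eno1 or Ldha in percent, for 5 DUSP6 KO (red) and 5 WT (blue) spleens with mean and SD, on axes that differ and do not start at 0. The 5 DUSP6 KO points for Eno1, at 79.9 to 85.0%, lie below the 5 WT points at 85.5 to 90.2%, and in the other 5 families the groups overlap.

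The other 5 families showed no difference past the test, with adjusted exact permutation p of 0.738 for each. Slc2a1 held 44.2 to 62.6% of Slc2a1 and Slc2a3, and Aldoa and Ldha held 98.5 to 99.4% and 95.4 to 97.4% of their families over the 10 spleens. Hk2 held 4.51 to 11.2% of the hexokinases and Pfkl held 25.6 to 43.7% of the phosphofructokinases. These 2 shares were lowest in DUSP6 KO mouse 73, at 4.51 and 25.6%, where erythroid markers were highest. In DUSP6 KO mouse 21, where erythroid markers were lowest, they were 11.2 and 43.0%.

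The isoenzymes of red blood cells varied widely between spleens, in both groups. Pklr, the pyruvate kinase of liver and red cells, measured 16.4, 5.40, 35.6, 26.5 and 10.5 FPKM in the DUSP6 KO group and 17.0, 5.68, 11.1, 23.8 and 12.8 FPKM in WT. Bpgm, which makes 2,3-bisphosphoglycerate in red cells, ranged from 80.1 to 285.2 FPKM in the DUSP6 KO group and from 77.9 to 175.0 FPKM in WT. Neither passed the test between genotypes (limma adjusted p = 0.993 and 0.978, exact permutation p = 0.643 and 0.389), and summed erythroid markers in the same order of mice were 62829, 17695, 91366, 42685 and 27398 FPKM in the DUSP6 KO group and 30334, 21997, 43537, 43682 and 22917 FPKM in WT. The spleens with the highest Pklr, DUSP6 KO mice 73 and 01, were the ones with the lowest Gpi1, Aldoa, Eno1 and Pkm. By summed erythroid markers DUSP6 KO mouse 26 stood above mouse 01, and it was not low for these genes. In mouse 26 Gpi1 was at 41.4, Aldoa at 131.7, Eno1 at 70.5 and Pkm at 71.6 FPKM. The part of erythroid cells in these levels was not tested.

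Of the 30 other glycolysis genes listed, 25 passed the filter on low values, 13 were higher and 12 lower in DUSP6 KO, and the median log2 fold change was 0.0085. With an unadjusted limma p under 0.05, 2 were higher and 0 lower, against 2.62% and 3.03% of all genes tested, and 0 passed the adjusted threshold. Beside Eno3, the other was Pgam2, the muscle-type phosphoglycerate mutase, at 5.17, 5.76, 6.42, 6.54 and 7.32 FPKM in the DUSP6 KO group and 4.46, 4.61, 3.38, 2.58 and 5.65 FPKM in WT. WT mouse 83 overlapped the DUSP6 KO range, and the log2 fold change of Pgam2 was 0.62 (SE 0.19, limma p = 0.00866, adjusted p = 0.619, exact permutation p = 0.0159). Pgam1, the mutase of most tissues, measured 36.8 ± 4.17 FPKM in the DUSP6 KO group and 39.5 ± 3.79 FPKM in WT (SD, n = 5), and Tpi1, triose phosphate isomerase, 47.1 ± 6.14 and 44.2 ± 4.83 FPKM.

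In the pentose phosphate pathway, which branches from the substrate of GPI1, 4 of 8 genes were higher and 4 lower, and 2, Pgd and Rpe (named after their values were seen), were lower with an unadjusted limma p under 0.05, as were 3.03% of all genes tested, while 0 passed the adjusted threshold. For pyruvate oxidation and the citrate cycle 14 of 22 were higher and 8 lower, and for hypoxia targets outside glycolysis 6 of 12 were higher and 6 lower, with 0 at an unadjusted limma p under 0.05 in either list. Hif1a, which drives glycolysis genes in low oxygen, measured 16.9 ± 1.80 FPKM in the DUSP6 KO group and 18.4 ± 1.06 FPKM in WT (SD, n = 5, limma adjusted p = 0.953, exact permutation p = 0.127). Myc, another activator of the pathway, measured 27.5 ± 3.17 and 26.2 ± 1.80 FPKM (SD, n = 5, limma adjusted p = 0.993, exact permutation p = 0.5).

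The glycolysis genes did not all vary together from spleen to spleen. Among the 45 pairs of the 10 genes, 33 had a positive Pearson r over the 10 spleens and 6 passed an adjusted permutation p of 0.05, all 6 positive. Aldoa and Eno1 varied together most closely, with r = 0.98 and rho = 0.94 (permutation p = 3e-05 and 0.0002, adjusted 0.00135 and 0.009, n = 10). The r was 0.93 without the 2 spleens farthest from the median of Aldoa and 0.98 on deviations from the group means. Gpi1 followed Pkm (r = 0.89, rho = 0.58), Aldoa (r = 0.89, rho = 0.60) and Eno1 (r = 0.86, rho = 0.66), with adjusted permutation p of 0.039, 0.0331 and 0.039 for r and of 0.555, 0.555 and 0.495 for rho. Without the 2 spleens farthest from the median of Gpi1 these r fell to 0.39, 0.53 and 0.33, so the 3 relations rest on those spleens. Hk2 followed Pkm (r = 0.81, rho = 0.84) and Pgk1 (r = 0.81, rho = 0.79), both with an adjusted permutation p of 0.039 for r and of 0.0853 and 0.126 for rho, and r was 0.64 and 0.68 without the 2 farthest spleens. Gapdh passed the test with no other gene, its lowest r being -0.58 with Eno1 (adjusted permutation p = 0.213, rho = -0.26, 0.08 without the 2 farthest).

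**Figure D4:**
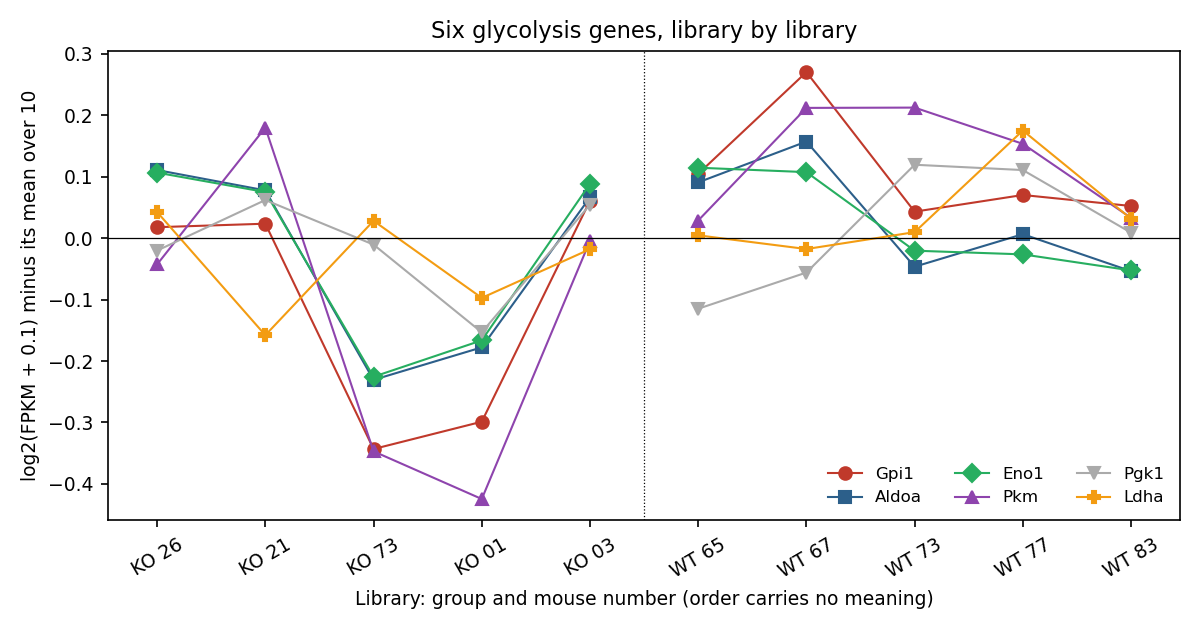
Deviation of log2(FPKM + 0.1) from the mean over 10 spleens for Gpi1, Aldoa, Eno1, Pkm, Pgk1 and Ldha, by library, with DUSP6 KO left and WT right of the dotted line. Gpi1, Aldoa, Eno1 and Pkm are all lowest in DUSP6 KO mice 73 and 01, where Gpi1 measured 32.3 and 33.3 FPKM, while Ldha in mouse 73 does not drop.

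Over 13421 genes with a mean level of 1 FPKM or more, the 5 with the highest r to Gpi1 were the pseudogene Gm8250 (r = 0.98), Ncf1 (r = 0.97), Diaph1 (r = 0.96), Ostf1 (r = 0.96) and Ccdc88b (r = 0.96), with rho of 0.73 to 0.83 over the 10 spleens. Ncf1, a subunit of the phagocyte NADPH oxidase, measured 34.9 and 34.7 FPKM in DUSP6 KO mice 73 and 01 and 40.5 to 55.0 FPKM in the others. Among the other glycolysis genes Pkm ranked 75th and Aldoa 78th by r with Gpi1, and Ldha 5904th. These r are descriptions over the same 10 libraries and share their depth and cell content.

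The starts of Gpi1, Aldoa, Eno1 and Ldha are shown because Aldoa and Eno1 varied together, Gpi1 is the autoantigen's gene and Ldha held the most sites. The sequences, from RefSeq in GRCm38.p6, are the 250 bases before a transcription start, 5′ to 3′ on the gene's strand, with capitals for ACGTG or GCGTG on either strand, the cores of the hypoxia response element, and for CACGTG, the E-box bound by MYC, which contains ACGTG on both strands. They lie at chr7:34230337-34230586 for Gpi1, chr7:126799255-126799504 for Aldoa, chr4:150236458-150236707 for Eno1 and chr7:46845554-46845803 for Ldha. Windows free of annotated exons were used, the nearest to the principal transcript's start and, for Ldha, the one with most sites, and those of Aldoa and Ldha lie inside the annotated genes.
Gpi1: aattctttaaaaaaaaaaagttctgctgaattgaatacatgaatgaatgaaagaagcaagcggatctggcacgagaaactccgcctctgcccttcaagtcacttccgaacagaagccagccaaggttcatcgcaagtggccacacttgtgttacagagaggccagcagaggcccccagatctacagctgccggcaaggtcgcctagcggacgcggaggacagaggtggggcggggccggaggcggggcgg
Aldoa: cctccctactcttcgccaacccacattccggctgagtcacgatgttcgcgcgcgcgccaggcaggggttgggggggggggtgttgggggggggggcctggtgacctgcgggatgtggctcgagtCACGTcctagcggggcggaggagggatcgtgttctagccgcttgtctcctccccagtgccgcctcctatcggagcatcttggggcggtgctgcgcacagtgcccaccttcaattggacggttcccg
Eno1: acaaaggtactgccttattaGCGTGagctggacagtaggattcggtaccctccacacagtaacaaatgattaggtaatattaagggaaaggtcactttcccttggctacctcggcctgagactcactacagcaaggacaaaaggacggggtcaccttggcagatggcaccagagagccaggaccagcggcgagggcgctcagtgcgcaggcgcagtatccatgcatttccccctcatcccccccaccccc
Ldha: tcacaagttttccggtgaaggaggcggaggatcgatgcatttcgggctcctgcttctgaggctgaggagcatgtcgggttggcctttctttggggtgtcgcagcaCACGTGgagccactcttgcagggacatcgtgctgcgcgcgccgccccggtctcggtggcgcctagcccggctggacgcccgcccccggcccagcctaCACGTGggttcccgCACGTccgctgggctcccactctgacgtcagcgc
The Gpi1 window held none of these letters, the Aldoa window 1 ACGTG, the Eno1 window 1 GCGTG, and the Ldha window 5 ACGTG, counted on both strands, with 2 CACGTG. The Ldha window nearest the principal start (chr7:46846832-46847081) held 1 GCGTG and none of the others. All 10 gene names matched the RefSeq table, with 16 windows in all, and ACGTG was in 7 of them, GCGTG in 7 and CACGTG in 1. Over all 32851 windows of this length, 16.6% held ACGTG, 28.2% GCGTG and 6.02% CACGTG. Windows of Eno1 and of Aldoa overlap one another, so a site there can count in more than 1 window. The match of letters describes the sequence and was not set against the levels.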

How the data were processed

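Spleen RNA of 5 DUSP6 KO and 5 WT mice was sequenced, with 1 library per mouse, and samples were grouped by the genotype label. Per the methods and the submitters' notes, alignment was with Hisat2, and the authors counted reads per gene with featureCounts 1.5.0-p3. The notes name hg38, but the rows are mouse genes and 98.2% have the coordinates of GENCODE M21 (GRCm38). The authors deposited FPKM values with gene lengths, and these lengths equalled the union of annotated exons for 98.0% of the genes. Whether counting used the strand is not given in the sources used here. FPKM times length came out as whole multiples of 1 step in each library (tolerance 0.001), which gave the reads.

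Groups were compared on log2(FPKM + 0.1) in limma 3.58.1 (R 4.3.3, eBayes with trend), over 21296 genes averaging 0.1 FPKM or more, and p-values were adjusted over all of them by Benjamini and Hochberg. A fold change on this scale understates the change of low genes. Counts were simulated for these genes and depths, with the same spread between libraries set for every gene. Changes were set only in genes above a minimum mean number of reads. In these simulated counts, 6% of genes changed 1.5-fold, 56% changed 2-fold and 100% changed 4-fold were recovered. The rates do not cover genes with fewer reads or with another spread. Isoenzyme shares were compared by exact permutation tests over spleens, neighbouring levels by exact sign-flip permutation tests, and correlations by 100000 permutations. Copies were found with blastn 2.17.0 on GENCODE transcripts. Tables and figures used Python 3.11.15, pandas, scipy, data.table and matplotlib. The genes named are the 10 genes, their isoenzymes, other glycolysis genes with an unadjusted p under 0.05, the 5 genes most correlated with Gpi1, Dusp6, Hif1a and Myc. Tpi1, Pgam1, Pklr and Bpgm, pathway genes outside this rule, were added after their values were seen, as were the muscle markers named. The genes and lists were chosen with earlier results of these data known. The alternatives tried are given in the closing section.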

Additional observations from a re-analysis of the deposited data

Results flagged for a closer look

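In 5 of the 34 groups of 5 values checked, 11 rows and 6 isoenzyme shares in each of the 2 genotypes, 1 spleen stood apart by the gap to its nearest neighbour relative to the whole range (Dixon's test at the 95% level). Chance gives this in about 1 group in 20. Gapdh was at 15.8 FPKM in DUSP6 KO mouse 73 and at 12.1 FPKM in WT mouse 83, where the highest of the other 8 spleens was 2.42 FPKM. Gpi1 was at 49.4 FPKM in WT mouse 67, the spleen with 6163 FPKM of exocrine pancreas markers, and the next WT spleen was at 44.0 FPKM. In WT mouse 77, where summed neutrophil markers were highest at 5010 FPKM, Ldha was at 124.5 FPKM and the Eno1 share of enolase was 90.2%. The part of these cells in the values was not tested.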

How the results depend on the processing

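None of the 11 glycolysis rows passed a limma adjusted p of 0.05 under any alternative tried. The number of the 11 rows with an unadjusted p under 0.05, 0 in the values reported, was 1 with a pseudocount of 1, a pseudocount of 0.01 or no filter on low values (Gpi1), 1 with array weights or limma voom on recovered reads (Pkm), and 0 to 3 when 1 spleen was left out, the highest without DUSP6 KO mouse 21 (Hk2, Gpi1 and Pkm) and 2 without mouse 03 (Gpi1 and Pkm). The number of other glycolysis genes under that threshold, 2 as reported, was 1 to 3 when 1 spleen was left out, with 1 without DUSP6 KO mice 26, 73 or 03 or WT mice 73 or 77. The log2 fold change of Pfkl turned to 0.034 with array weights and 0.0054 with median centring, and ran from -0.065 to 0.022 over spleens left out. Over spleens left out that of Slc2a1 ran from -0.19 to 0.085, of Eno1 from -0.082 to 0.0014, of Pgk1 from -0.059 to 0.0078 and of Gapdh from -1.14 to 0.11. Slc2a1 was at 0.16 without the 2 spleens of highest Gapdh, an alternative chosen after seeing the data. The share differences ran from -1.55 to 3.26 points for Slc2a1, from -4.19 to 0.23 for Pfkl, from -0.45 to 0.049 for Ldha and from -4.11 to -2.83 for Eno1, whose exact permutation p, adjusted over the 6 families, rose from 0.0476 to at most 0.190. Per kilobase of the principal transcript, also chosen after seeing the data, Gpi1 took place 5 by level instead of 6. The cause of these changes was not tested. No paired analysis was made, since the labels and methods give no pairing of DUSP6 KO with WT mice. In simulated data of this size, with the same spread between libraries set for every gene, 6% of genes changed 1.5-fold were recovered. That spread was not fitted to Gpi1 or Pkm, so the share does not give how often differences like theirs would be detected.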
